A study of Mus musculus with 12 samples.

Results

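Among the 12578 H3K79me2 peaks called in CD8 T cells grown with the DMSO vehicle, 1851 (14.7%, exact 95% interval 14.1 to 15.3) were overlapped by exactly 1 peak of the EPZ-5676 list that covered less than 50% of their bases. These 1851 DMSO peaks are called core domains here, and the EPZ peak in each is called its core. They were chosen by the overlap and the covered share themselves, so the number, the covered share, the fold enrichment and every other measure of DMSO against EPZ in them are descriptions with no test. Core domains were 54.7% (53.0 to 56.4) of the 3382 DMSO peaks with any EPZ peak, which were 26.9% of all DMSO peaks, and they held 24.8% of all bases under DMSO peaks. The other DMSO peaks fell into 3 classes, namely 874 with 1 EPZ peak over 50% or more of their bases (called mostly covered peaks here), 657 with 2 or more EPZ peaks and 9196 with none.

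H3K79me2 is the dimethyl form of lysine 79 in the globular part of histone H3. DOT1L, which works without the SET domain of other histone lysine methyltransferases, places it, and the mark lies over the transcribed part of active genes, densest shortly after the start site and thinner towards the gene's end. DOT1L travels with AF9 and ENL family proteins that also belong to elongation complexes of RNA polymerase II, and in T cells it is known as a guard of normal differentiation. EPZ-5676, also called pinometostat, and SGC-0946 both occupy the pocket of DOT1L for the methyl donor S-adenosylmethionine. No dedicated enzyme for removing the mark is widely agreed on, and dilution of old nucleosomes by cell division lowers it when DOT1L is blocked.

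The cells came from male mice of a strain labelled CreERT2;DOT1L-flox;OT-I with the genotype wt;wt;het, so that in every group the Cre and the floxed Dot1l alleles were wild type and the OT-I T cell receptor transgene was heterozygous. The mice's age was not given in the labels. After isolation, CD8 T cells were stimulated through CD3 and CD28, expanded until day 8 and given 0.1% DMSO, EPZ-5676 or SGC-0946 at intervals through the culture. The labels give 10 mM for each inhibitor, a doubtful unit. The 12 libraries were 6 immunoprecipitates and 6 inputs, 2 biological replicates for each of 3 treatments, and each received yeast chromatin carrying an HA tag on histone H3. Only 1 peak list per treatment was analysed, so replicate spread was not measured, no test over samples was possible, and intervals cover the counting of peaks only. Read depth is unknown from these lists. In cells of a bulk culture, fewer cells that carry the mark and less mark per cell cannot be told apart.

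Of the markers fixed for the cell type, 9 of 9 for CD8 T cells carried a DMSO peak. Cd3e, a chain of the T cell receptor complex, at 6.08-fold and Cd5, a receptor that dampens its signal, at 5.18-fold were in core domains. None of 3 CD4 T, 2 NK and 7 myeloid markers of that set carried one. Of 2 longer lists, 2 of 20 CD4 T, B and NK cell genes and 1 of 17 myeloid genes had a DMSO peak. The 3 were Cd79a, the chemokine receptor gene Cxcr5, with a peak of 0.3 kb at 2.60-fold and no EPZ peak, and the adaptor gene Tyrobp, through 0.698 kb of a mostly covered peak of 10.6 kb. Of 5 B cell markers of the shorter set, Cd79a was touched through 0.254 kb of a core domain of 13.0 kb that mostly lay in Arhgef1.

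The clearest feature of core domains was where along the gene the core lay. In most domains the core began shortly after the start of the gene and the domain ran on past it. Of the 6 promoters given here, the last 3 show this order. In the first 3, of a rarer kind, the core began before the start. Each is the 250 bases before a gene's start from RefSeq (GRCm38.p6), 5′ to 3′ on the gene's strand, with every CG dinucleotide in capitals. They were sorted by the whole RefSeq window, which runs from 250 bases before the start to 50 after it. In the first 3 genes that window lay wholly under the core, and in the other 3 it lay wholly in the DMSO domain and outside the core. They are those of highest DMSO fold enrichment of each kind by that window. Windows of the first kind were found in 26 and of the second in 167 of the 555 core domains that had 1 listed start and touched 1 gene.
Ifngr1, chr10:19591699-19591948, plus strand: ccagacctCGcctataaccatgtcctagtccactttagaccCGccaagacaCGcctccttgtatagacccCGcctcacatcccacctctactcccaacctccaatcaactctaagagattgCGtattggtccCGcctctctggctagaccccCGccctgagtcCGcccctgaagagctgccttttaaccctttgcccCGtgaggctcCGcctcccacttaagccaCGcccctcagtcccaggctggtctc
Cytip, chr2:58160123-58160372, minus strand: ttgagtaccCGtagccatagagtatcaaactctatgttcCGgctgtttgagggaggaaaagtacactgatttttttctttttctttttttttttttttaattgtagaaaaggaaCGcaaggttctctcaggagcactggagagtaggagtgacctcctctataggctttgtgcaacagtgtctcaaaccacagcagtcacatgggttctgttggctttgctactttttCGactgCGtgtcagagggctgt
Actg1, chr11:120348496-120348745, minus strand: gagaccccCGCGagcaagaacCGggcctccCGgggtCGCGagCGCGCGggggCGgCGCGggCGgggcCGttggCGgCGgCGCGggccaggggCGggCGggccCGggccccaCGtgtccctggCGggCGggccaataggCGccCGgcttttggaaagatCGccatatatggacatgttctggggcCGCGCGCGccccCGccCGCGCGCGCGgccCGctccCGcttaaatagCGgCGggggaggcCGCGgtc
Mknk2, chr10:80676294-80676543, minus strand: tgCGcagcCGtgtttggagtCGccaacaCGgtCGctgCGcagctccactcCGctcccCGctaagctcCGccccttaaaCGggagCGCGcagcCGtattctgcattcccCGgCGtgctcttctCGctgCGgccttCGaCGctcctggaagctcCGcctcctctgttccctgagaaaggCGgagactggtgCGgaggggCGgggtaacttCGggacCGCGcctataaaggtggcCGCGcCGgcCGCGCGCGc
Hnrnpa3, chr2:75659009-75659258, plus strand: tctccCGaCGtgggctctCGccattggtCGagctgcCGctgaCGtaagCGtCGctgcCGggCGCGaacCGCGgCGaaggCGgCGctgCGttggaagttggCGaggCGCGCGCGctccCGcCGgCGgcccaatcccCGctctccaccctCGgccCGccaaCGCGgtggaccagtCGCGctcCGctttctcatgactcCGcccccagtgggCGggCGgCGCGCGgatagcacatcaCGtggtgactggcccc
Junb, chr8:84978749-84978998, minus strand: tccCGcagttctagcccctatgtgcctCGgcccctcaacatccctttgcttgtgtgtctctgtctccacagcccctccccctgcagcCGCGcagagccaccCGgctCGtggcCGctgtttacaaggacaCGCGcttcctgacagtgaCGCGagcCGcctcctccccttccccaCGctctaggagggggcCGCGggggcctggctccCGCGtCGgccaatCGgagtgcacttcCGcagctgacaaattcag

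Ifngr1 encodes the ligand-binding chain of the interferon gamma receptor. Its DMSO domain of 18.6 kb had a fold enrichment of 9.18, the authors' ratio over background averaged over the peak, and its core ran from 391 bases before the listed start to 8697 bases after it. The core of Cytip, which encodes a lymphocyte protein that binds cytohesin, began 593 bases before the start, and that of the cytoplasmic actin gene Actg1 began 1229 bases before it. In these 3 genes the EPZ peak thus took in the promoter window together with the start of the gene.

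In the second set the order was different. At Mknk2, a kinase that phosphorylates the translation factor eIF4E, the DMSO domain began 2313 bases before the start, while the core began 197 bases after it. At Hnrnpa3, an RNA-binding protein gene, the core began 130 bases after the start, in a domain that began 2772 bases before it. At Junb, a subunit of the AP-1 transcription factor, the values were 54 bases after and 4954 bases before. CG dinucleotides numbered 11, 5 and 43 in the windows under a core and 33, 40 and 20 in those outside it, so the 2 sets overlapped.

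The core also mostly began after the start over the domains with 1 gene whose start and strand were listed, 1196 of the 1851. Unlike in the second set of promoters, the domain itself mostly began near the start. The DMSO domain began a median of 37 bases after the start (quartiles -137.5 and 259) and ended 7229 bases after it. The core began a median of 458 bases after the start (quartiles 202.5 and 840.8) and ended 2209 bases after it (quartiles 1460 and 3661.2). It therefore sat between the start and the early part of the gene, with a short uncovered stretch before it and a long one behind it. The uncovered stretch had a median of 443.5 bases on the upstream side and 4361 bases on the downstream side. Summed over these domains, 1003.3 kb were uncovered upstream of the cores and 7599.0 kb downstream, so that 88.3% of uncovered bases lay downstream. Over the 1437 core domains whose every protein-coding gene had a listed start, the main setting, this share was 85.3%. It is a share of bases and not of domains, so no interval is given for it. In 1129 of the 1196 (94.4%, 92.9 to 95.6) more bases were uncovered downstream than upstream.

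**Figure D1:**
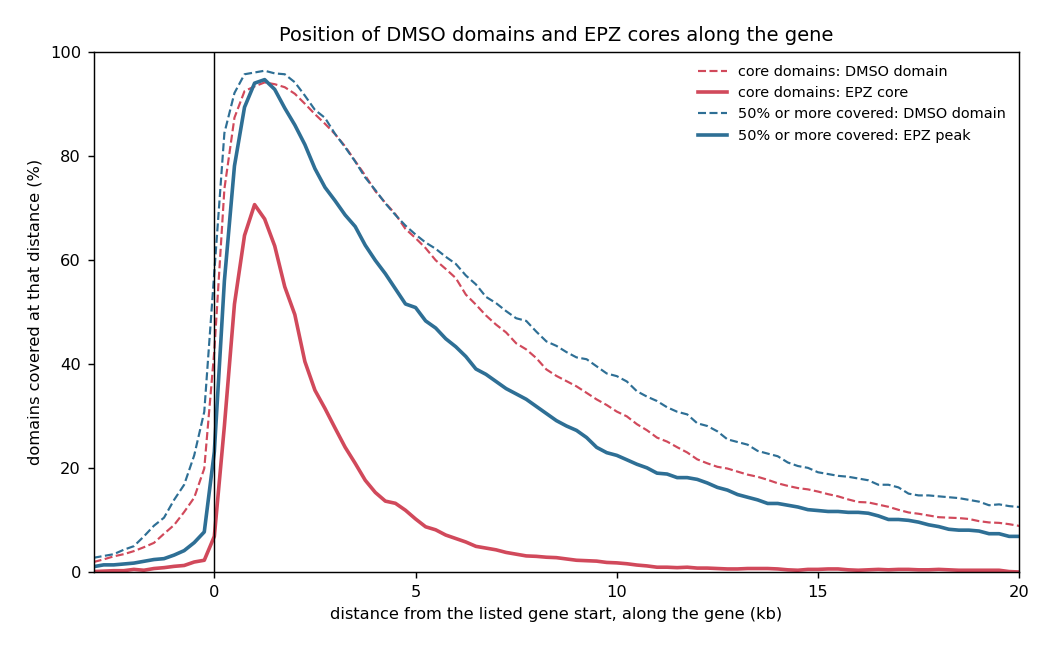
Share of domains (y axis, %) in which the DMSO domain (dashed) or the EPZ peak (solid) covers a position at a given distance from the listed gene start along the gene (x axis, kb), for 1196 core domains (red) and 584 mostly covered peaks (blue). The DMSO curves have highest values of 94.2% and 96.4%, both at 1.25 kb, and the blue one lies above the red around the start, while the EPZ core reaches 70.7% at 1 kb and then drops much earlier than the blue solid line, which reaches 94.7%.

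The start itself was mostly outside the core. Over the 1437 core domains whose every protein-coding gene had a listed start, a start lay inside the domain in 773 (53.8%, 51.2 to 56.4) and under the core in 179 (12.5%, 10.8 to 14.3). A window as wide as the core at the centre of the domain held a start in 94 (6.54%). Counting starts within 500 bases of the core raised the number to 832 (57.9%), so the core often began a short way past the start. The core's upstream edge lay after the start in 1094 of the 1196 domains (91.5%) and within 1 kb after it in 856 (71.6%). The exceptions were few, with 55 cores (4.60%) beginning more than 5 kb into the gene and 20 (1.67%) lying wholly before the listed start. Distances were taken to the listed RefSeq start nearest the domain's upstream edge, a choice that keeps the distance of the domain's own edge small where a gene has several, and starts not listed were not analysed here.

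Along the gene, the centre of the core fell between 10 and 20% of the way through the domain in 396 of the 1196, between 20 and 30% in 384, in the first 10% in 135, and in the last 30% in 15 (1.25%). Laid out by chromosome coordinate and not by gene strand, the centres in all 1851 domains formed 2 groups, with 288 between 20 and 30% and 302 between 70 and 80% of the way. The one-sided layout therefore appeared only when domains were turned to the direction of transcription.

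Wider domains had longer cores, but the core began at about the same place. In domains under 5 kb the core began a median of 399 bases after the start and ended at 1382, and in those over 20 kb it began at 541 and ended at 5955. The stretch left uncovered behind the core grew far more, from a median of 1.98 kb in domains under 5 kb to 20.1 kb in those over 20 kb. More bases were uncovered downstream than upstream in 91.8% of the narrowest of these groups and in 98.0% of the widest.

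The mostly covered peaks had the same orientation with less lost at the far end. Over 584 such peaks with 1 listed gene, the EPZ peak began a median of 202.5 bases after the start and ended at 5265, and the DMSO peak ended at 7779. Of 665 with every gene listed, 220 (33.1%, 29.5 to 36.8) had a start under the EPZ peak, against 12.5% of core domains. Since these peaks were separated from core domains by the share of their bases under the EPZ peak, and a longer EPZ peak reaches a start more easily, this difference was set in part by the rule. More bases were uncovered downstream in 520 of the 584 (89.0%). The DMSO peaks with no EPZ peak lay deeper in genes, with an upstream edge at a median of 6283 bases after the start, and 661 of 7056 (9.37%) held a start.

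Core domains were strong and wide DMSO peaks, though not the strongest. Their median DMSO fold enrichment was 5.24 (quartiles 4.61 and 6.16, range 2.73 to 11.4), against 7.93 for mostly covered peaks, 6.05 for peaks with 2 or more EPZ peaks and 3.08 for those with none. Their median deposited −log10 q was 7.29, against 2.32 over all DMSO peaks. By width they had a median of 7.15 kb (range 0.539 to 69.9), close to the 7.93 kb of mostly covered peaks, below the 22.2 kb of those with several EPZ peaks and above the 1.55 kb of those with none. They spanned a median of 30.0% of the length of their gene where 1 listed gene was touched, against 50.1% for mostly covered peaks, and their host genes had a median length of 23.6 kb against 18.7 kb.

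By decile of DMSO fold enrichment, 1609 of the 1851 core domains (86.9%) were in the 3 highest. They made up 2.94%, 15.3%, 44.8% and 56.3% of the sixth to the ninth decile and 26.8% of the highest. In the ninth decile, between 5.08 and 6.56, they were the commonest class, with 708 peaks, and in the highest 660 of the peaks were mostly covered against 337 core domains. At like DMSO fold, core domains were wider than peaks without an EPZ peak. In the eighth decile 564 core domains had a median width of 7.65 kb and 552 peaks without an EPZ peak had 3.17 kb. Wider peaks give more room for an overlap, and the rule needs one. The share of these with an upstream edge within 1 kb of the start was 86.4% of 375 core domains and 84.5% of 387 peaks without an EPZ peak in that decile, so at this fold both kinds began near the start.

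**Figure D2:**
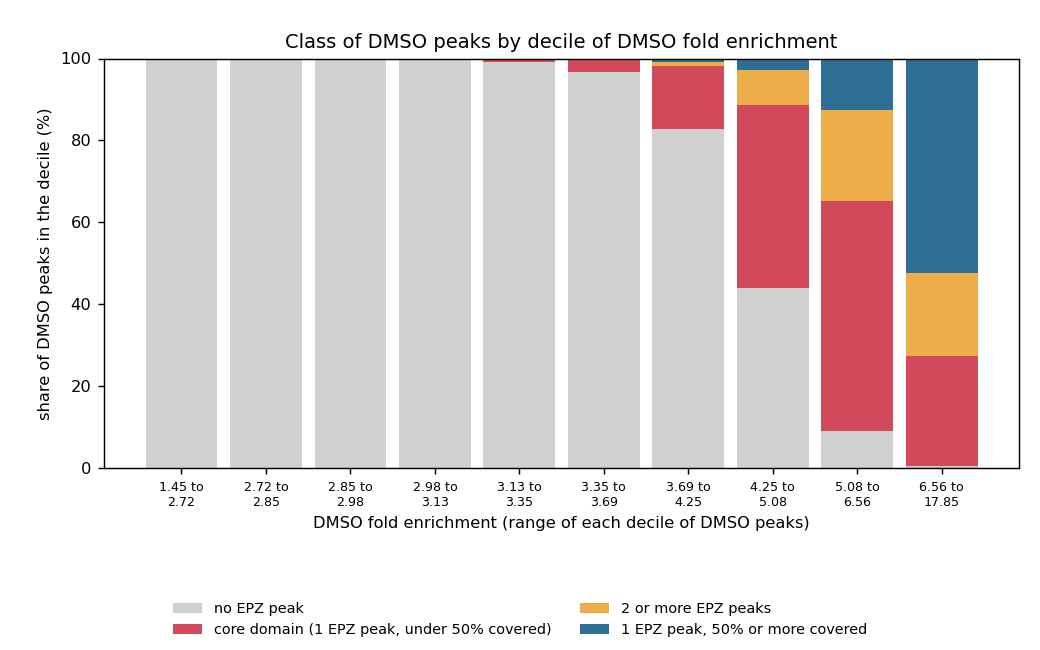
Share of DMSO peaks in each class (y axis, %) by decile of DMSO fold enrichment (x axis, range of each decile). Core domains (red) rise to 56.3% of the ninth decile and make up 26.8% of the highest, where mostly covered peaks (blue) are 52.5%.

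The covered share varied widely among core domains. Its median was 24.7% (quartiles 14.4 and 36.6), 283 domains had under 10% of their bases covered, and 357 had between 40 and 50%. The cores had a median width of 1.56 kb (quartiles 0.830 and 2.75), and 567 of them (30.6%) were under 1 kb. Across the domains the covered share went with DMSO fold (Spearman's correlation 0.65 over 1851 domains, given as a description, since all points share the DMSO list and the caller's threshold). From the lowest to the highest of 4 equal groups by DMSO fold the median covered share was 11.7, 19.0, 27.9 and 39.6%, while the median domain width stayed between 6.79 and 7.49 kb. With domain width the covered share went weakly the other way (correlation -0.23), and domain width and DMSO fold were nearly unrelated (correlation -0.04). Core width followed domain width (correlation 0.56) with medians of 0.807, 1.48, 2.24 and 3.19 kb from the narrowest to the widest of 4 equal groups.

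**Figure D3:**
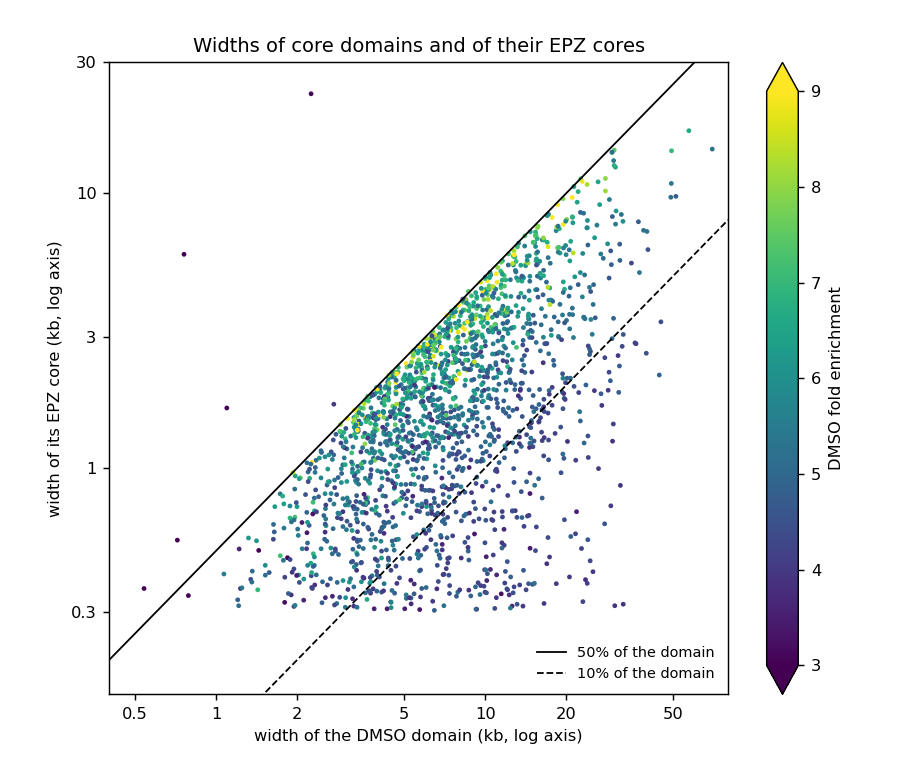
Width of each DMSO core domain (x axis, kb, log axis) against the width of its EPZ core (y axis, kb, log axis), 1 point for each of 1851 domains, coloured by DMSO fold enrichment. Points near the solid line, where the core is 50% as wide as the domain, are mostly of high fold, those under the dashed line at 10% are mostly of low fold, and the points above the solid line are among the 19 domains whose core reaches past an edge.

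The cores made up 1851 of the 4443 EPZ peaks (41.7%), so values over that list include their own. They were narrower than the peaks of the whole list, with a median width of 1.56 kb against 2.10 kb. Their median EPZ fold enrichment was 3.49 (quartiles 3.12 and 4.36), against 3.62 over all 4443 EPZ peaks and 5.85 for the EPZ peaks of mostly covered DMSO peaks, and 1027 of the cores (55.5%) lay below the median of the EPZ list. The fold values of the 2 lists are on separate scales and were not subtracted. At the bound of the rule the order was continuous. Among peaks of at least 5 kb the 5 just under 50% were Purb (49.7%), Hspa4 (49.8%), Mdm4 (49.8%), Rexo5 (49.9%) and the enolase gene Eno1 (49.96%, 4.397 kb of EPZ peak at a domain of 8.66 kb). The 5 just over it were Slc9a3r1 (50.0%), Btf3 (50.1%), Il4ra (50.2%), Prelid3b (50.2%) and Atad2 (50.3%). Their DMSO fold ran from 4.27 to 7.499 on the inner side and from 6.54 to 10.6 on the outer.

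The 10 core domains of highest DMSO fold ran from 10.06 to 11.4. Mknk2 had the highest, 11.4-fold over 11.8 kb (chr10:80666831-80678606), with a core of 3.77 kb that covered 32.0% of it. Cct5, a subunit of the chaperonin that folds actin and tubulin, had 11.3, in a domain that also reached Atpsckmt. Ewsr1, an RNA-binding protein gene, had 11.2 over 19.5 kb with a core of 7.71 kb. Rpl11, a ribosomal protein gene, had 11.1 over 3.97 kb, of which 48.98% was covered. The tropomyosin gene Tpm3 had 10.99 and the splicing factor gene Sf3b1, a part of the U2 particle, had 10.7, and their cores were 8.18 and 9.67 kb. Pa2g4, Lonp1, Eif4a3 and Fasn, the fatty acid synthase gene, followed at 10.4, 10.2, 10.1 and 10.1. Of these 10 only Mknk2 had under 39% of the domain covered. The Lonp1 domain lay over the downstream end of that gene and also touched Rpl36, and its core reached past the domain's edge.

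The 10 widest core domains had DMSO folds between 4.36 and 6.99. The widest, 69.9 kb at 5.29-fold (chr6:99204096-99274001), was at Foxp1, a transcription factor that keeps T cells quiescent. Its core of 14.5 kb covered 20.8% and left 6.74 kb uncovered upstream and 48.7 kb downstream. At Irf2, which encodes an interferon regulatory factor, the domain of 57.2 kb had a core of 16.9 kb (29.6%). Sh3kbp1, an adaptor of receptor uptake, had 51.2 kb, and its core began 81576 bases after the nearest listed start, at the domain's own upstream end. Lrrfip1, Bicra, Fbxo11, Septin11, Fkbp5, Ppm1h and Osbpl8 had domains of 49.3 down to 39.97 kb. Fkbp5, a co-chaperone of the glucocorticoid receptor, kept a core of 2.18 kb, 4.91% of its 44.4 kb, and Septin11 3.41 kb, 7.56% of 45.0 kb. In the 9 of these 10 whose strand was listed, the uncovered stretch was longer downstream, at 31.2 to 48.7 kb, than upstream, at 0.203 to 6.74 kb.

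**Figure D4:**
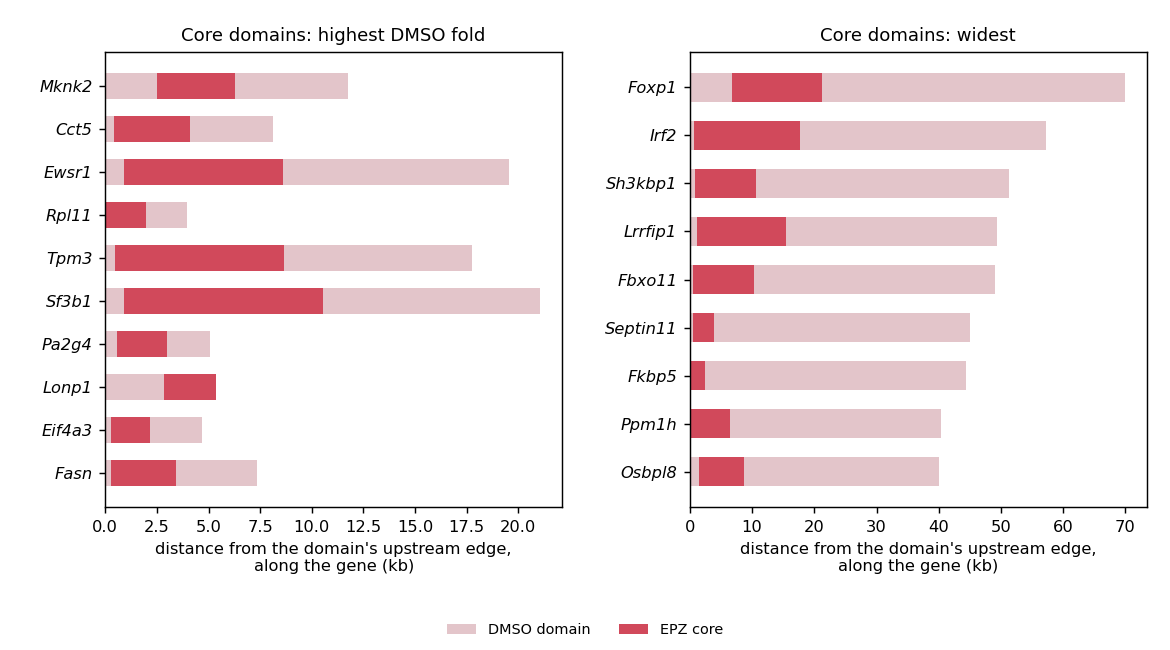
Core domains of highest DMSO fold (left) and widest core domains (right), 1 bar per domain, laid out along the gene from the domain's upstream edge (x axis, kb; the scales of the panels differ), with the EPZ core in dark red. The core lies near the upstream edge in each but Mknk2, where 2.51 kb precede it, Foxp1, where 6.74 kb precede it, and Lonp1, where it ends the domain; Bicra, whose strand was not listed, is not drawn.

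At the other extreme the core was a short remnant. Among core domains of at least 5 kb the smallest covered share, 0.978%, was at Notch2, a receptor of the Notch family. There 0.319 kb of a 32.6 kb domain (chr3:98013992-98046615) were covered, 518 bases after the listed start, and 32.2 kb lay uncovered behind. Next were the nuclear transport receptor gene Xpo7 (1.04%), Maea (1.41%), Ankrd12 (1.59%), Smad2 (1.66%), which carries signals of TGF-beta, the corepressor gene Tle4 (1.66%), Septin9 (1.87%) and Znrf1 (1.94%). Their cores were 0.315 to 0.459 kb wide, near the lowest core width of 0.303 kb, and their DMSO fold was 3.80 to 4.26, below the median of core domains. The Xpo7 domain also touched Dok2.

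With SGC-0946, which left 55 peaks in all, nearly all core domains had no peak. An SGC peak overlapped 3 of 1851 (0.162%, 0.0334 to 0.473), against 0.334% of all DMSO peaks and 28 of 874 mostly covered peaks (3.20%, 2.14 to 4.60). The 3 were at Hnrnpa3, Tpm3 and Mki67, the gene of the proliferation antigen Ki-67. Each SGC peak lay wholly inside the EPZ core. At Hnrnpa3 it was 0.698 kb wide (chr2:75660405-75661102), at Tpm3 0.436 kb (chr3:90082496-90082931) and at Mki67 1.86 kb (chr7:135713731-135715586). They began 1146, 2975 and 793 bases after the listed start. Their SGC fold was 3.63, 3.44 and 3.40, all below the median of 3.80 of that list. Their deposited −log10 q was 1.71, 1.34 and 1.37, against a median of 2.06 over the SGC list. The 3 cores were among the highest of the EPZ list, above 99.1, 99.8 and 99.7% of its peaks. At DMSO folds of 8.129 or more, the lowest of the 3 domains, SGC peaks overlapped 3 of 74 core domains (4.05%, 0.844 to 11.4). They overlapped 23 of 403 mostly covered peaks (5.71%, 3.65 to 8.44) and 10 of 94 with several EPZ peaks (10.6%, 5.22 to 18.7). At high DMSO fold the intervals of these classes thus overlapped. This bound was set after the values were seen.

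Protein-coding genes were next sorted by the class of their highest DMSO peak. Of 7563 genes with a DMSO peak, 2069 (27.4%) had a core domain, 952 a mostly covered peak, 753 a peak with several EPZ peaks and 3789 one with none. A domain that touches several genes counts for each, also for a gene outside its core. The 25 gene lists held 1023 genes, 923 with a DMSO peak, and 316 of those had a core domain, whose core lay at least in part inside the gene in 302 and outside it in 14. The lists were drawn up with earlier results of these data known, and their counts were not tested. In 18 of the 25 lists the core share was above the 27.4% of all marked genes, so a share above it was common among them.

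The lists with the highest shares were those of aminoacyl-tRNA synthetases and of the cell cycle, against 27.4% of all marked genes. Of 73 marked cell cycle and DNA replication genes, 40 had a core domain (54.8%), 17 a mostly covered peak, 7 several EPZ peaks and 9 none. Their DMSO fold ran from 4.18 at Ccnb1, a cyclin of mitosis, to 9.86 at the tubulin gene Tubb5, in a domain shared with Flot1. Tfdp1, the partner of E2F factors, had the widest, 29.2 kb with 7.11% covered, and the least covered, 6.08% of 6.04 kb, was shared by Ufd1 and the replication helicase gene Cdc45, with the core outside Cdc45. Of 22 aminoacyl-tRNA synthetase genes, which charge tRNAs with amino acids, 14 had a core domain (63.6%) and 2 a mostly covered peak. Gars had 7.18-fold over 12.2 kb with 49.3% covered, and Rars 5.53-fold with 6.79% covered. Mars1 was touched through 0.393 kb of a domain of Mbd6 and Ddit3.

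Cytosolic and mitochondrial ribosomal protein genes are given side by side, with no test between them. Core domains were found in 35.85% and 18.9% of their marked members and in 36.8% of respiratory chain and ATP synthase genes. The share of all marked genes was 27.4%. All 53 cytosolic ribosomal protein genes had a DMSO peak, with 19 core domains, 31 mostly covered peaks and 0 without an EPZ peak, and the core domains ran from Rps4x at 4.46 to Rpl11 at 11.1. Of 53 marked mitochondrial ribosomal protein genes 10 had core domains, 2 mostly covered peaks and 41 no EPZ peak, and 5 of the 10 hosted the domain, the others being touched by that of a neighbour. Respiratory chain and ATP synthase genes had 25 core domains among 68, led by Atp5a1, the alpha subunit of ATP synthase, at 9.53 over 4.64 kb with 44.1% covered, and 34 without an EPZ peak. Sdha, a subunit of succinate dehydrogenase, had 3.77% of 12.1 kb covered, in a domain shared with Ccdc127.

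Genes of translation, folding, protein turnover and splicing had core domains in 35.1 to 42.9% of marked members, against 27.4% of all marked genes. Translation factors had 16 core domains among 42, from Eif3m at 4.53 to Eif4a3, a helicase of the exon junction complex, at 10.1. Heat shock and chaperonin genes had 15 of 35 with a median covered share of 45.0%, the highest median of the lists with at least 5 such genes. Proteasome genes had 13 of 35, from Psmc5 at 4.54 to Psmd3 at 7.48. Splicing genes had 20 core domains and 20 mostly covered peaks among 57. The least covered of these, 4.01% of 9.21 kb, was shared by Prpf4 and Cdc26, and its core lay outside Prpf4.

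In the transcription machinery 23 of 57 genes of RNA polymerase II, Mediator and elongation had a core domain (40.4%) and 5 a mostly covered peak. Cdk9, the kinase of the elongation factor P-TEFb, had 7.47-fold over 7.55 kb with a core of 2.42 kb that began 195 bases after the start. Its partner Ccnt2 had 6.24-fold over 21.4 kb with 49.6% covered, while Taf4, a TFIID subunit, kept 0.563 kb of 20.8 kb (2.70%). Larp7, of the complex that holds P-TEFb inactive, had the lowest fold of the list, 4.04, in a domain shared with Zgrf1 whose core lay outside Larp7. Of 68 partners of DOT1L and other chromatin modifiers 19 had core domains (27.9%), close to the 27.4% of all marked genes. Kat7, an acetyltransferase, led at 8.16-fold with 40.1% covered. Ep300, a coactivator acetyltransferase, had 24.4 kb with 18.6% covered, and the methyltransferase genes Kmt2c and Ash1l kept 3.29 and 2.61%.

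T cell genes were spread over the classes. Core domains were found in 36.8% of marked T cell receptor complex and identity genes, against 27.4% of all marked genes. The 7 core domains among 19 T cell receptor complex and identity genes included Cd2, an adhesion receptor, at 8.09-fold over 14.4 kb with 38.7% covered, Cd96 at 4.37-fold and Cd5, where 0.649 kb of 7.04 kb (9.22%) were covered from 318 bases after the start. T cell receptor signalling genes had 7 core domains among 37 (18.9%) and 17 with several EPZ peaks. The phosphatase gene Ptpn6 kept 19.3% of 12.1 kb, Dok2 had 7.69-fold and Ptpn7 5.06. Of 17 cytotoxic genes 7 had core domains (41.2%), but 3 of them were touched by a neighbour's domain and hosted none. Among those, Gzmm held 0.661 kb of the 9.02-fold domain of Cdc34. Rab27a, which docks cytotoxic granules, had 6.24-fold over 30.7 kb with a core of 8.63 kb.

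Among 44 T cell transcription factor genes 11 had a core domain (25%, against 27.4% of all marked genes). Eomes, a T-box factor of effector and memory CD8 cells, had 6.80-fold over 11.9 kb and a core of 4.84 kb that began 172 bases after the start. Klf3 kept 6.02% of 13.6 kb and Myb, a factor of cell renewal, 0.390 kb (7.37%) of 5.29 kb at 3.55-fold. Of 33 cytokine receptor and JAK-STAT genes 9 had core domains (27.3%), from Smad2 at 3.80 to Ifngr1 at 9.18. Homing and adhesion genes had 6 of 27 (22.2%), so these lists were close to the share of all marked genes or below it. Ccr7, the receptor that guides naive cells into lymph nodes, had 8.16-fold over 12.8 kb with 48.3% covered. Itgae, the integrin chain CD103, had 8.17-fold with 35.6%. That domain reached neither end of Itgae and also touched Haspin. The 1 listed start in it was that of Haspin, and none was listed for Itgae. Of 13 inhibitory and costimulatory receptors 5 had core domains (38.5%). Slamf7 had 7.31-fold, Cd82 4.96 and Tnfrsf9, encoding 4-1BB, 4.33, the last with 24.4% of 5.16 kb covered.

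Among signalling, metabolic and survival genes, some wide domains had short cores. The amino acid transporter gene Slc7a1 kept 2.62 kb of 39.7 kb (6.59%), the kinase gene Pik3ca 2.23 kb of 28.9 kb (7.73%), and Stim1, the calcium sensor of the endoplasmic reticulum, 1.09 kb of 24.2 kb (4.52%). In these 3 the core began within 1 kb after the start, at 395, 954 and 348 bases. At Stim2, with 1.91 kb of 25.5 kb covered (7.51%), it began farther in, at 1770 bases. PI3K, mTOR and calcium genes had 12 core domains among 43 (27.9%, close to the 27.4% of all marked genes), with a median covered share of 16.9%. Glycolysis, Myc and transport genes had 7 of 34 (20.6%), including Hk2, hexokinase, at 4.14-fold, and 14 mostly covered peaks. Apoptosis genes had 10 of 24 (41.7%). Bcl2l11, encoding the death protein BIM, kept 2.99 kb of 21.3 kb from 6 bases after the start, and Cflar, an inhibitor of caspase-8, had the highest fold of that list, 6.64. Interferon and antigen presentation genes had 7 of 24 (29.2%), from Irf8 at 4.29 with 10.1% covered to Trim25 at 8.12. Actin cytoskeleton genes had 13 core domains among 42 (30.95%) and 19 mostly covered peaks, and Cotl1, a coactosin gene, kept 14.4 kb of 30.2 kb.

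**Figure D5:**
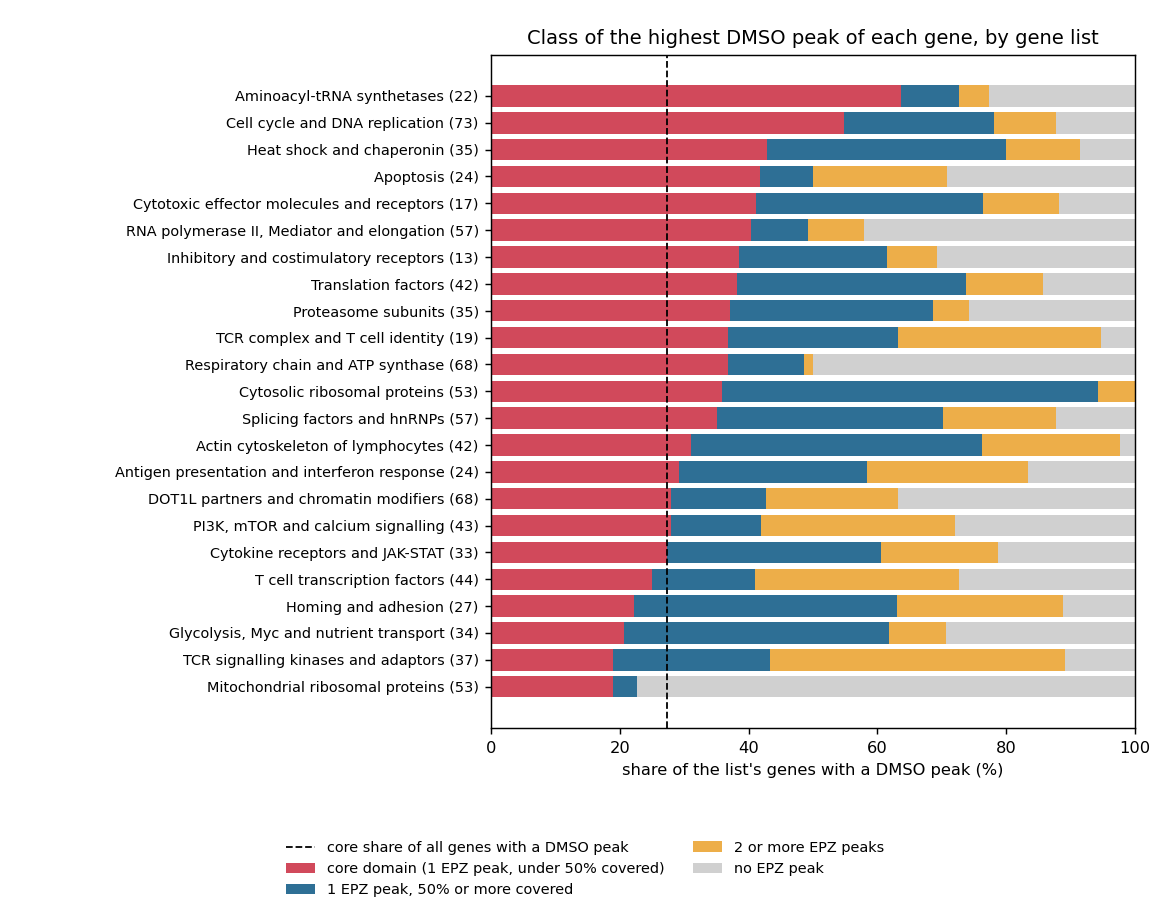
Share of each gene list's DMSO-marked genes (x axis, %; number of genes in brackets) by the class of the gene's highest DMSO peak, for the 23 lists with at least 5 such genes. The dashed line marks the core share of all 7563 marked genes, 27.4%; aminoacyl-tRNA synthetase (63.6%) and cell cycle genes (54.8%) lie farthest above it, and mitochondrial ribosomal protein (18.9%) and T cell receptor signalling genes (18.9%) farthest below.

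Core domains that span a pair of divergent genes were also laid out by the side on which the core lay. Of 225 core domains with 2 listed genes, 117 covered the starts of a divergent pair, whose starts lay a median of 137 bases apart. The core lay wholly on 1 gene's side in 88 of the 117 (75.2%, 66.4 to 82.7) and reached a start or the gap between them in 29. The rule allows 1 EPZ peak per domain, so domains with an EPZ peak on each arm fell in another class and were not examined here. The share with the core on 1 side was thus set in part by the rule. On the 88, the core was on the wider arm of the domain in 76 (86.4%, 77.4 to 92.8), with median arms of 6.25 and 2.10 kb. At Pign and Relch the arms were 1.84 and 9.94 kb and the core was on Relch's. At Rps6kb1, which encodes the S6 kinase, and Tubd1 they were 9.02 and 1.47 kb, and the core was on the side of Rps6kb1. An exception was Srgap2 and Fam72a, where the core lay on the arm of 3.72 kb at Fam72a and not on that of 14.9 kb. These examples were picked after their values were seen. A wider arm gives a core more room, which was not tested.

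Promoters of core-domain genes were rich in CG, as were those of the other classes of DMSO peaks. The 250 bases before the start held a median of 18 CG dinucleotides (quartiles 12 and 25) in 1186 host genes with a listed promoter, as in 581 hosts of mostly covered peaks. The median was 20 in 409 hosts of peaks with several EPZ peaks and 17 in 3666 of peaks without an EPZ peak. It was 10 over 21263 promoters of protein-coding genes and 5 in genes with no DMSO peak. The letters TATAAA, searched on both strands, were found in 72 (6.07%) of the core-domain promoters, in 8.61% of those of mostly covered peaks, in 3.42% with several EPZ peaks, in 5.05% with none and in 11.6% of all listed. Of the windows shown above, that of Mknk2 holds them. A match is a description of the letters and not a site.

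Some host genes held other DMSO peaks besides the core domain. Of 1477 core domains that touched exactly 1 protein-coding gene, 605 (41.0%) were in a gene with at least 1 other DMSO peak. Those genes held 1570 other DMSO peaks, and 1502 of them (95.7%, 94.5 to 96.6) had no EPZ peak, against 9196 of 12578 DMSO peaks in all. The 12578 include the 1851 core domains, which have an EPZ peak by the rule. Each domain was left out of the other peaks of its own gene, so the difference was set in part by the rule. The lists give 1 fold value for a peak and not its course along the peak, so whether the core sits where the DMSO signal is highest was not tested.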

How the data were processed

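H3K79me2 chromatin immunoprecipitation was sequenced in CD8 T cells of 3 treatments, and 1 list of broad peaks per treatment was analysed. Per the submitters' processing notes, the tools were MACS2 2.2.7.1, BWA 0.7.17-r1188 and Picard, on mm10 or GRCm38 and, for yeast, sacCer3. Replicate pooling, inputs, yeast scaling and cut-offs were not given in the sources used here. The deposited fold enrichment is the authors' ratio over background averaged over a peak. Significance per peak was read as the deposited −log10 q, and the deposited score, 10 times that value, was used only in a check. Depth is unknown, and weak peaks may go uncalled.

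Overlap meant 1 or more shared bases, computed in Python 3.11.15 with pandas 2.3.3, numpy 2.4.6 and scipy 1.17.1, tested on simulated data. Intervals are exact (Clopper-Pearson, 95%). Fold was compared only within a list. Genes came from RefSeq on GRCm38.p6 (21900 protein-coding, 17492 with a listed start and strand). Exons and introns were not analysed here. A domain's host is the gene holding most of its bases. Genes named are hosts of the 10 strongest, 10 widest and 8 least covered domains, the 5 on either side of the bound, those with an SGC peak and up to 4 per list, and promoters on chromosome 18 were left out; other names were picked after their values were seen. Members and lists were chosen with earlier results of these data known.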

Additional observations from a re-analysis of the deposited data

How the results depend on the processing

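Over 7 results, 26 of 40 alternatives gave a value inside the main value's 95% interval or, for a number of domains or genes, within 1.5 times of it, 14 did not and none reversed. For the downstream share of uncovered bases, the interval used was that of a share counted over 1437 domains. That interval does not measure the spread of a share of bases. With peaks of −log10 q 5 or more only, there were 781 core domains, with a median covered share of 33.6%, a median DMSO fold of 6.55, a start under the core in 24.96%, SGC peaks at 0.384% and 89.4% of uncovered bases downstream. The shares for starts and downstream bases were 12.5% and 85.3% as reported over the 1437 domains with listed genes. A bound of 33% gave 1257 domains, medians of 18.3% covered and 4.93-fold, a start under the core in 8.31% and SGC peaks at 0%. A bound of 67% gave 2333 domains, 30.7%, 5.53-fold, 15.7% and SGC peaks at 0.3%, against 0.162% as reported. Counting starts within 500 bases gave 57.9%, and domains with 1 gene gave 88.3% downstream. The cause of these shifts was not tested. No paired analysis was possible because each treatment has 1 pooled list, and for the same reason no replicate could be left out. Weak EPZ peaks that went uncalled would make cores shorter or absent, and the unknown depth limits how far the covered shares can be read.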

Other observations

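Of the 1851 core domains 51 touched no protein-coding gene, 34 of them at another annotated gene and 17 at none. Their DMSO fold ran from 2.84 to 8.47, with a median covered share of 30.2%. Neat1, the long RNA that builds paraspeckles, had the highest, 8.47-fold over 8.80 kb, with a core of 3.11 kb (35.3%) of 17.9-fold in the EPZ list. Snhg16, a host of small nucleolar RNAs, had 7.54-fold with 45.3% covered, and Pvt1, the long RNA next to Myc, 6.65-fold with 49.8% covered.

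A domain of 3.31 kb on chromosome X (52741843 to 52745152) took in the Mir106a to Mir92-2 cluster of microRNAs and Kis2. Its core of 0.755 kb (22.8%) lay outside all 5 hairpins there. Over core domains outside chromosome 18, 32 microRNA hairpins of the RefSeq sequence table were found, 6 at least partly under a core and 26 outside it.

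The core of highest EPZ fold belonged to a weak domain. At the T cell receptor beta locus a DMSO peak of 2.25 kb and 3.09-fold at Trbv31 was overlapped over 15.9% of its bases by an EPZ peak of 23.1 kb and 26.3-fold that lay mostly beyond it. This was also the widest core, and 1 of 19 that reached past an edge of the domain. Keeping EPZ peaks with at least 50% of their bases in the domain left 1847 core domains.

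By chromosome the share of DMSO peaks that were core domains ran from 12.1% on chromosome 6 to 17.8% on chromosome 11, leaving out chromosome Y with 1 of 6.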
